A study of Mus musculus with 12 samples.

Results

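The neuromuscular junction genes are a group of 10 genes for the synapse between motor nerve and muscle fiber: the acetylcholine receptor subunits Chrna1, Chrnb1, Chrnd, Chrne and Chrng, the postsynaptic organizers Musk, Dok7 and Rapsn, and Ache and Colq, which make the enzyme of the synaptic cleft. They were chosen by symbol, and all 10 were found among the 55573 gene identifiers of the count table. RNA was sequenced in 12 libraries from the extensor digitorum longus (EDL), a fast hindlimb muscle, of C57BL/6 mice. There were 3 libraries each of a single myofiber, of a pool of 5 myofibers, of a pool of 20 myofibers and of whole muscle, all made from total RNA with the SMART-Seq HT kit, which is built for minute RNA inputs. Per the labels, Trizol was used for the RNA of whole muscle whereas single fibers went straight into lysis buffer; nothing is said of the pools. The labels give no treatment, genotype, age, sex or animal, so the p-values measure only the spread between these libraries, which may be technical.

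A motor axon contacts each muscle fiber at a small endplate, where nerve-released agrin acts through Lrp4 to activate the receptor tyrosine kinase MuSK. Dok-7 binds MuSK from inside the fiber and is needed for its activity, and rapsyn anchors the acetylcholine receptors into dense clusters. The receptor is a pentamer of alpha, beta, delta and either gamma or epsilon subunits: gamma belongs to fetal and denervated muscle, epsilon to the adult endplate. In innervated adult fibers these genes are transcribed mainly in the few nuclei under the synapse, and denervation turns several of them on along the fiber.

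Reads that fall outside expressed genes and the scaling of the libraries bear on every value given here. Totals ran from 4702823 to 27787120 counted reads. As a measure of background, 1504 sensory receptor genes (olfactory, vomeronasal and taste), which muscle is not known to express, were used: 4.79% to 26.7% of them had a read in single fibers, 4.59% to 68.9% in pools of 5, 78.7% to 97.3% in pools of 20 and 2.33% to 4.85% in whole muscle. Pools of 5 number 1 and 2 and all 3 pools of 20 had over 50%. Pool of 20 number 2 stood apart from the other pools of 20 (Pearson r of log2 values across genes 0.792 and 0.806, against 0.949 between the other two), and pool of 5 number 3 from the other pools of 5 (0.891 and 0.846, against 0.933). Counts scaled to a common library size (CPM) were computed with factors from the trimmed mean of M-values (TMM), which ran from 0.522 to 0.885 in single fibers and pools of 5, from 1.03 to 2.95 in pools of 20 and from 1.42 to 1.60 in whole muscle. In bulk samples, fewer cells of a type and less RNA per cell cannot be told apart. Levels per gene below are TMM-scaled CPM unless another scale is named.

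In whole muscle, the order of the genes by mean CPM per kilobase of exon put the receptor anchor and the beta subunit at the top and the delta and gamma subunits at the bottom. Rapsn stood first at 15.9 ± 0.949 CPM per kilobase (SD, n = 3 throughout this order), followed by Chrnb1 at 14.1 ± 1.67, and their ranges of mean ± SD overlapped. The ranges of Ache at 8.42 ± 1.16 and Chrne at 7.96 ± 0.427 also overlapped, and Chrna1 followed at 5.25 ± 0.923. Dok7 was at 2.81 ± 0.520, Musk at 1.52 ± 0.620 and Colq at 1.26 ± 0.203, of which the ranges of Musk and Colq overlapped. Chrnd, at 0.374 ± 0.0617, and the fetal subunit Chrng, at 0.0959 ± 0.0809, were lowest. Divided by the length of the longest coding transcript instead, Ache came to 17.8 CPM per kilobase, level with Rapsn at 17.8 and Chrnb1 at 16.5, so the place of Ache depends on which exons are counted.

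In single fibers the order changed at several places. Chrnb1 led at 35.0 ± 10.8 CPM per kilobase (SD, n = 3 throughout), ahead of Rapsn at 26.1 ± 4.95, Chrne at 21.9 ± 26.6, Chrna1 at 20.7 ± 11.03 and Dok7 at 19.7 ± 13.9. The ranges of mean ± SD overlapped between neighbours among these 5 genes. Ache, which ranked 3 in whole muscle, ranked 6 at 8.45 ± 1.69, and Musk at 6.00 ± 3.78, Colq at 2.71 ± 1.15, Chrnd at 1.56 ± 0.624 and Chrng at 0.135 ± 0.180 followed. In pools of 5 the means ran from 30.0 ± 6.92 CPM per kilobase for Chrnb1 to 0.223 ± 0.280 for Chrng, and in pools of 20 from 23.6 ± 13.6 for Chrnb1 to 0.231 ± 0.257 for Chrng, with Rapsn second in both.

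**Figure D1:**
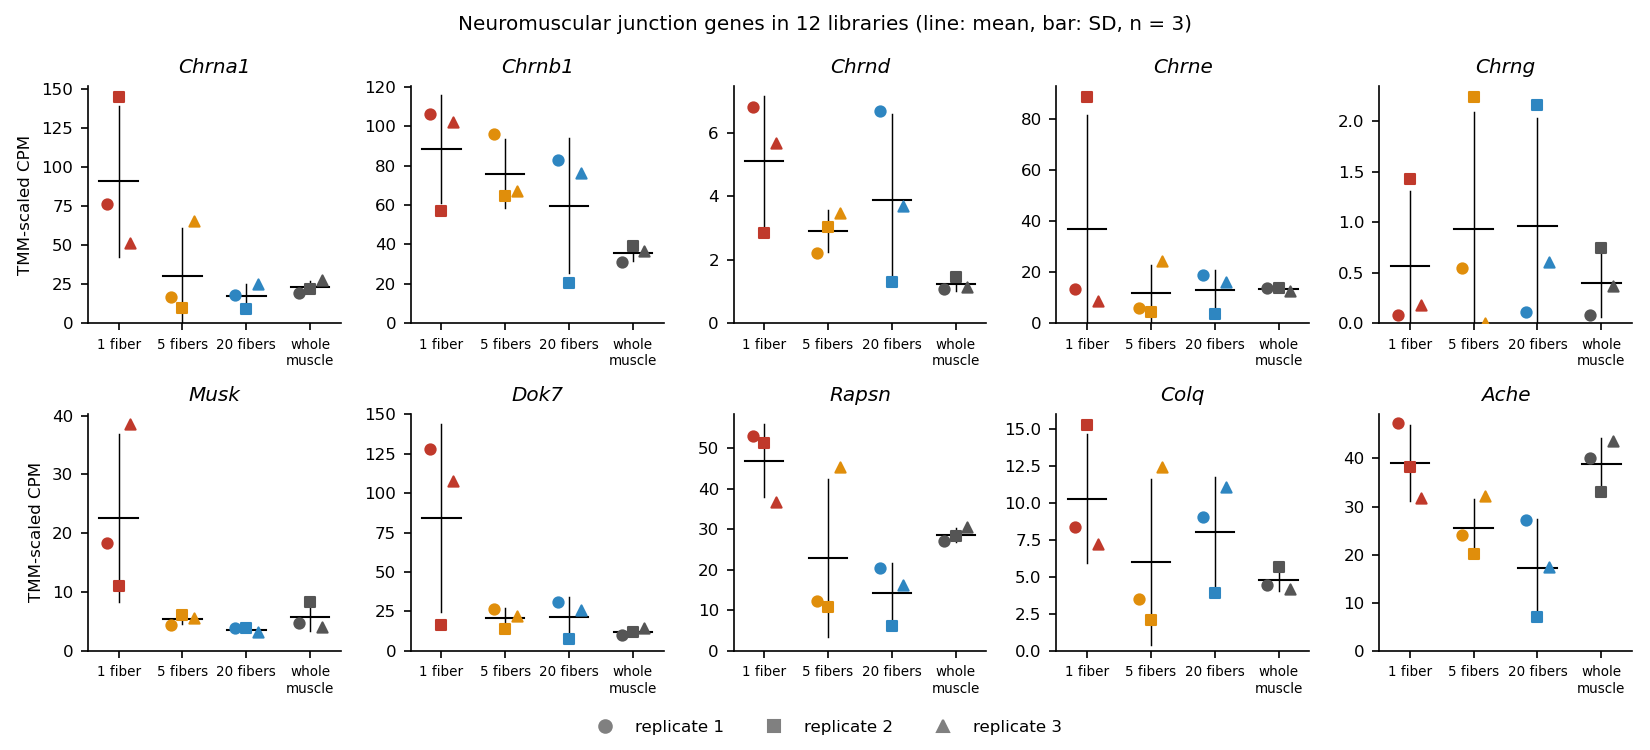
TMM-scaled CPM of each of the 10 genes (vertical axes, linear, starting at 0) in single fibers, pools of 5, pools of 20 and whole muscle; each marker is 1 library, its shape the replicate number, the horizontal line the group mean and the vertical line the SD (n = 3). The whole muscle libraries of Chrne span 1.10-fold, while Chrne reaches 88.7 CPM in single fiber 2 and Dok7 128 and 108 CPM in single fibers 1 and 3.

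The sequence upstream of 3 of the genes is shown. Chrna1 and Musk were called higher in single fibers than in pools of 20 (values below), and Chrne was not. Across single libraries the 3 genes do not divide in this way. Single fiber 2 was the highest single fiber for Chrna1 (145 CPM) and Chrne (88.7 CPM) and the lowest for Musk (11.03 CPM). A link between the sequences and the levels was not tested. Each line gives the 250 bases before the RefSeq transcription start on GRCm38.p6, 5′ to 3′ on the gene's strand. Capitals mark the E-box, CANNTG, which myogenic factors such as MyoD and myogenin bind, and the N-box, CCGGAA on either strand, which Ets-family factors such as GABP bind and which is known from synapse-specific promoters.
Chrna1 (chr2:73580339-73580588, minus strand): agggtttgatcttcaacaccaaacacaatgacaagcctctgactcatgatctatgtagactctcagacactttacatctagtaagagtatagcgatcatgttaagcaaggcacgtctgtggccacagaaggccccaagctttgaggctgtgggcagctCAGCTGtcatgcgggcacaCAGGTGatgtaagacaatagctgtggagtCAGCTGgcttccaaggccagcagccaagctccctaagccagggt
Musk (chr4:58285712-58285961, plus strand): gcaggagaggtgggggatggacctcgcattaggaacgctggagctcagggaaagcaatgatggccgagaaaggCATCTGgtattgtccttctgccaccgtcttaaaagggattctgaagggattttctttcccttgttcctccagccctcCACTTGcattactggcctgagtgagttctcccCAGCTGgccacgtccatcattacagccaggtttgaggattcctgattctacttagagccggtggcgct
Chrne (chr11:70619195-70619444, minus strand): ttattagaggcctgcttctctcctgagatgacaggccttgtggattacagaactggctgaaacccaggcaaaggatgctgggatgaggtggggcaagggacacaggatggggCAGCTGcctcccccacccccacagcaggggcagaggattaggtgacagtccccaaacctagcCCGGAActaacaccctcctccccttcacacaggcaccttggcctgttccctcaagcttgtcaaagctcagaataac
Chrna1 holds 3 E-boxes, beginning 92, 73 and 44 bases before the start, and Musk holds 3, beginning 177, 100 and 68 bases before it. Chrne holds 1 E-box, 138 bases before its start, and the capitals CCGGAA beginning 76 bases before it. RefSeq windows that run 250 bases before to 50 bases after a start were found for 7 of the 10 genes, 8 windows in all, since Dok7 has 2. Of these, 1 window held the N-box, against 14.9% of all 32851 promoter windows of that length, and 7 held an E-box, against 72.3%. The motifs overlap in none of the printed stretches, and a match is a description of the letters only.

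Chrna1, on chromosome 2 (73563215 to 73580338, minus strand, ENSMUSG00000027107), encodes the alpha subunit, which carries most of the acetylcholine binding site. It was at 76.6, 145 and 51.3 CPM in single fibers 1 to 3, at 16.5, 9.75 and 65.2 CPM in pools of 5, at 17.9, 8.87 and 25.0 CPM in pools of 20, and at 19.6, 21.98 and 27.5 CPM in whole muscle. All 3 single fibers lay above all whole muscle libraries, and in the pools only pool of 5 number 3 did. In single fibers Chrna1 was higher than in whole muscle by 1.90 on the log2 scale (SE 0.37, adjusted p = 0.00821, edgeR quasi-likelihood test with Benjamini-Hochberg adjustment over all genes tested). Scaled by library totals without TMM factors the value was 0.78 (adjusted p = 0.0637), still positive but not past the threshold. Single fibers were also higher than pools of 20, by 1.97 (SE 0.51, adjusted p = 0.00959), where library totals gave 1.09 (adjusted p = 0.0580).

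Chrnb1, on chromosome 11 (69784036 to 69795943, minus strand, ENSMUSG00000041189), encodes the beta subunit, whose phosphorylation helps tie the receptor to rapsyn. It was at 106, 57.0 and 102 CPM in single fibers, at 96.1, 64.4 and 67.4 CPM in pools of 5, at 82.8, 20.2 and 76.3 CPM in pools of 20, and at 31.0, 39.2 and 36.7 CPM in whole muscle. Of the 9 fiber libraries, 8 lay above the highest whole muscle library, and pool of 20 number 2 lay below the lowest. Chrnb1 rose in single fibers against whole muscle by 1.29 on the log2 scale (SE 0.32, adjusted p = 0.0195), and was at 1.03 (SE 0.30, adjusted p = 0.0742) in pools of 5 and 1.04 (SE 0.50, adjusted p = 0.103) in pools of 20. With library totals these were 0.27 in single fibers (adjusted p = 0.568), -0.17 in pools of 5, where the sign turned, and 0.72 in pools of 20 (adjusted p = 0.0441).

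Chrnd, on chromosome 1 (87190607 to 87200070, plus strand, ENSMUSG00000026251), encodes the delta subunit and was low throughout. It was at 6.84, 2.86 and 5.70 CPM in single fibers, at 2.20, 3.04 and 3.49 CPM in pools of 5, at 6.69, 1.30 and 3.71 CPM in pools of 20, and at 1.08, 1.46 and 1.15 CPM in whole muscle. Every library of single fibers and of pools of 5 lay above whole muscle, and pool of 20 number 2 fell inside its range. Chrnd rose in single fibers by 2.02 on the log2 scale (SE 0.52, adjusted p = 0.0208) and in pools of 20 by 1.94 (SE 0.66, adjusted p = 0.0257), with library totals 1.00 and 1.58, neither past the threshold (adjusted p = 0.168 and 0.134). In pools of 5 it was at 1.17 (SE 0.50, unadjusted p = 0.0480), with library totals 0.03. In pool of 20 number 2 its read density lay within the background density, defined as the 99th percentile of the sensory receptor genes in the same library.

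Chrne, on chromosome 11 (70614883 to 70619216, minus strand, ENSMUSG00000014609), the adult epsilon subunit, varied more among fibers than any other member but Chrng. It was at 13.3, 88.7 and 8.82 CPM in single fibers, at 5.87, 4.48 and 24.5 CPM in pools of 5, at 18.8, 3.75 and 16.2 CPM in pools of 20, and at 13.9, 13.8 and 12.6 CPM in whole muscle. The whole muscle libraries spanned 1.10-fold and the fiber libraries 23.6-fold. Single fiber 2 and pool of 5 number 3 lay highest, and no fiber group was separate from whole muscle. The log2 fold change in single fibers was 1.34 (SE 0.76, adjusted p = 0.207), and without single fiber 2 it was -0.31, so that library decided the sign.

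Chrng, on chromosome 1 (87204657 to 87212694, plus strand, ENSMUSG00000026253), the fetal gamma subunit, was at the edge of detection. It had 1, 22 and 2 reads in single fibers, 6, 14 and 0 reads in pools of 5, 1, 30 and 13 reads in pools of 20, and 1, 21 and 11 reads in whole muscle. In 9 of the 12 libraries its density lay within the background density; the exceptions were single fiber 2 and whole muscle 2 and 3. In pool of 20 number 2 the 30 reads compare with 31.6 that the mean density of the sensory receptor genes would give, and in pool of 20 number 3 the 13 reads with 20.8. Chrng was called in none of the 6 comparisons in which it was tested, and in single fibers against whole muscle its log2 fold change of 0.40 turned to -0.75 with library totals.

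The gamma share asks how much of the adult and fetal subunits together was fetal: Chrng reads per kilobase over those of Chrne and Chrng. It was 0.255%, 0.649% and 0.813% in single fibers, 3.67%, 16.9% and 0% in pools of 5, 0.244%, 18.98% and 1.51% in pools of 20, and 0.225%, 2.16% and 1.18% in whole muscle. Fibers averaged 4.78% ± 7.55 (SD, n = 9) and whole muscle 1.19% ± 0.965 (SD, n = 3), a difference of 3.59 percentage points (exact two-sided permutation test over 220 splits, p = 0.655). The pools with 16.9% and 18.98% are ones with many background reads, and after subtraction of the background the difference was 0.723 points (exact permutation p = 0.636). In single fiber 2, the library with most receptor reads, 1.58% of the Chrne and Chrng reads were Chrng (Clopper-Pearson 95% interval 0.995% to 2.39%), and the 0 of pool of 5 number 3 allows up to 0.984%, both covering counting error only.

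Within the receptor, the shares of the 5 subunits do not depend on how libraries are scaled. Per kilobase, Chrnb1 made up 60.5%, 20.6% and 68.4% of the subunit reads in single fibers, 82.5%, 80.1% and 46.6% in pools of 5, 65.4%, 60.7% and 64.6% in pools of 20, and 48.4%, 52.9% and 50.6% in whole muscle. Chrne made up 11.3%, 48.1% and 8.83% in single fibers, 7.55%, 8.33% and 25.4% in pools of 5, 22.3%, 16.9% and 20.5% in pools of 20, and 32.6%, 27.9% and 26.0% in whole muscle. In 8 of the 9 fiber libraries the epsilon share was below that of every whole muscle library, and single fiber 2 lay above them all. Single fiber 2 was likewise the one library in which Chrnb1 was under the Chrna1 density, with 0.682 times as many reads per kilobase, against 2.40 and 3.45 times in the other 2 single fibers and 2.32 to 3.09 times in whole muscle.

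Musk, on chromosome 4 (58285960 to 58374303, plus strand, ENSMUSG00000057280), encodes the kinase that receives the agrin signal. It was at 18.3, 11.03 and 38.6 CPM in single fibers, at 4.404, 6.08 and 5.53 CPM in pools of 5, at 3.86, 3.82 and 3.14 CPM in pools of 20, and at 4.80, 8.38 and 3.98 CPM in whole muscle. Single fibers lay above every other library of the series, and pools of 20 below every whole muscle library. The log2 fold change was 2.00 in single fibers against whole muscle (SE 0.56, adjusted p = 0.0293) and 2.16 in single fibers against pools of 20 (SE 0.59, adjusted p = 0.0122). With library totals both stayed positive, at 1.04 and 1.35, without passing the threshold (adjusted p = 0.208 and 0.154), and without single fiber 3 the call against whole muscle was lost. Against pools of 5 the value was 2.10 (SE 0.60, unadjusted p = 0.00751), which did not pass over all genes.

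Dok7, on chromosome 5 (35056766 to 35087839, plus strand, ENSMUSG00000044716), encodes the cytoplasmic activator of MuSK and differed widely among single fibers. It was at 128, 16.4 and 108 CPM in single fibers, at 26.8, 14.1 and 21.8 CPM in pools of 5, at 31.2, 7.79 and 26.1 CPM in pools of 20, and at 9.91, 11.8 and 14.3 CPM in whole muscle. Single fibers 1 and 3 had more than every other library, while single fiber 2 lay close to the highest whole muscle library. Dok7 rose in single fibers by 2.80 on the log2 scale (SE 0.70, adjusted p = 0.0193) and in pools of 20 by 1.14 (SE 0.40, adjusted p = 0.0288). With library totals the values were 1.81 (adjusted p = 0.0728) and 0.83 (adjusted p = 0.0279), so the call in pools of 20 held and that in single fibers did not. In pools of 5 the value was 0.72 (SE 0.32, unadjusted p = 0.0575), and -0.48 with library totals.

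Rapsn, on chromosome 2 (91035620 to 91045729, plus strand, ENSMUSG00000002104), encodes the receptor anchor rapsyn. It was at 52.9, 51.2 and 36.7 CPM in single fibers, at 12.4, 10.9 and 45.3 CPM in pools of 5, at 20.4, 6.06 and 16.2 CPM in pools of 20, and at 27.2, 28.2 and 30.5 CPM in whole muscle. Single fibers and pool of 5 number 3 lay above whole muscle, and the other 5 fiber libraries below it. Rapsn was called in single fibers against pools of 20, by 1.35 on the log2 scale (SE 0.44, adjusted p = 0.0291), which was 0.57 with library totals (adjusted p = 0.243). This call was lost in 7 of 13 alternatives, among them leaving out any 1 of the single fibers or pool of 20 number 3 (adjusted p = 0.0282 to 0.0814 over the libraries left out in turn). Against whole muscle it was at 0.66 in single fibers (SE 0.23, adjusted p = 0.0606), which library totals turned to -0.42, and at -0.70 in pools of 20 (SE 0.38, adjusted p = 0.151), where library totals gave -0.99 (adjusted p = 0.00549).

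Ache, on chromosome 5 (137287519 to 137294466, plus strand, ENSMUSG00000023328), encodes acetylcholinesterase, which breaks down the transmitter and is also made by cholinergic neurons. It was at 47.3, 38.2 and 31.7 CPM in single fibers, at 24.04, 20.1 and 32.1 CPM in pools of 5, at 27.2, 7.07 and 17.4 CPM in pools of 20, and at 40.2, 33.1 and 43.5 CPM in whole muscle. Both pool groups lay entirely below whole muscle and the single fibers overlapped with it. The log2 fold change was -0.05 in single fibers (SE 0.25, adjusted p = 0.892), -0.69 in pools of 5 (SE 0.29, unadjusted p = 0.0487) and -0.87 in pools of 20 (SE 0.43, adjusted p = 0.109). Scaled by library totals, Ache was called lower in all 3, by -1.13 (adjusted p = 0.0116), -1.86 (adjusted p = 0.00630) and -1.19 (adjusted p = 0.00389). On that scale 46.2%, 36.5% and 18.4% of all genes were called lower. Relative to the median of all genes Ache stood at 0.07, -0.66 and -1.45, so in single fibers it lay at the typical gene.

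Colq, on chromosome 14 (31523082 to 31591343, minus strand, ENSMUSG00000057606), encodes the collagen-like tail that ties acetylcholinesterase to the basal lamina and MuSK. It was at 8.42, 15.3 and 7.21 CPM in single fibers, at 3.49, 2.08 and 12.4 CPM in pools of 5, at 9.07, 3.90 and 11.1 CPM in pools of 20, and at 4.49, 5.67 and 4.22 CPM in whole muscle. Single fibers lay above whole muscle, and pools of 5 and of 20 each overlapped with it. Colq rose in pools of 20 by 1.07 on the log2 scale (SE 0.38, adjusted p = 0.0309), with library totals 0.82 (adjusted p = 0.173), and was at 1.04 in single fibers (SE 0.38, adjusted p = 0.0664), with library totals -0.07. Its density lay within the background density in pool of 20 number 2 and in pool of 5 number 2. It shares 199 exon bases, 5.23% of its exons, with the same-strand gene Gm49387, so some of its reads could have been left out or assigned there. Ache likewise shares 98 exon bases, 2.12%, with the opposite-strand Gm42456, and the strand setting of the counting is not given in the sources used here.

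The comparison of single fibers with whole muscle asks which genes stand higher or lower in 1 isolated fiber than in the tissue it comes from. Of the 10 genes, 5 rose and 0 fell: Chrna1, Chrnb1, Chrnd, Musk and Dok7. Over all 14028 genes tested 33.6% were called, 13.9% higher and 19.8% lower, and the median log2 fold change was 1.32 over the 10 genes against -0.12 over all genes. In CPM, 7 of the 10 genes lay above all whole muscle libraries and 0 below, where 52.1% of all genes tested did not overlap, 21.2% above and 30.9% below. Scaled by library totals, 1 of the 10 genes lay above (Chrna1) and 2 below (Rapsn and Ache). The share of all genes that lay above or below on that scale was not computed. With library totals the median of all genes shifted by -1.08, 1 member was called, Ache, lower, and 49.3% of all genes were called, 3.17% higher and 46.2% lower. Relative to that shifted median the 5 genes stood 1.47 to 3.01 higher on the log2 scale, against 1.41 to 2.92 with TMM factors. A change of scaling moves all genes by about the same amount, so these near-equal distances were given in advance. The 5 genes are also the ones called with TMM factors, and the distances do not show that their rise holds with library totals. Leaving out whole muscle 1 or whole muscle 2 left 0 of the 10 genes called, and leaving out whole muscle 3 left Chrna1, where 11.8%, 10.4% and 11.1% of all genes were called, so the calls fell over the whole table as well. Without single fiber 1 there were 3 calls (33.1% of all genes) and without single fiber 3 there were 2 (29.1%).

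**Figure D2:**
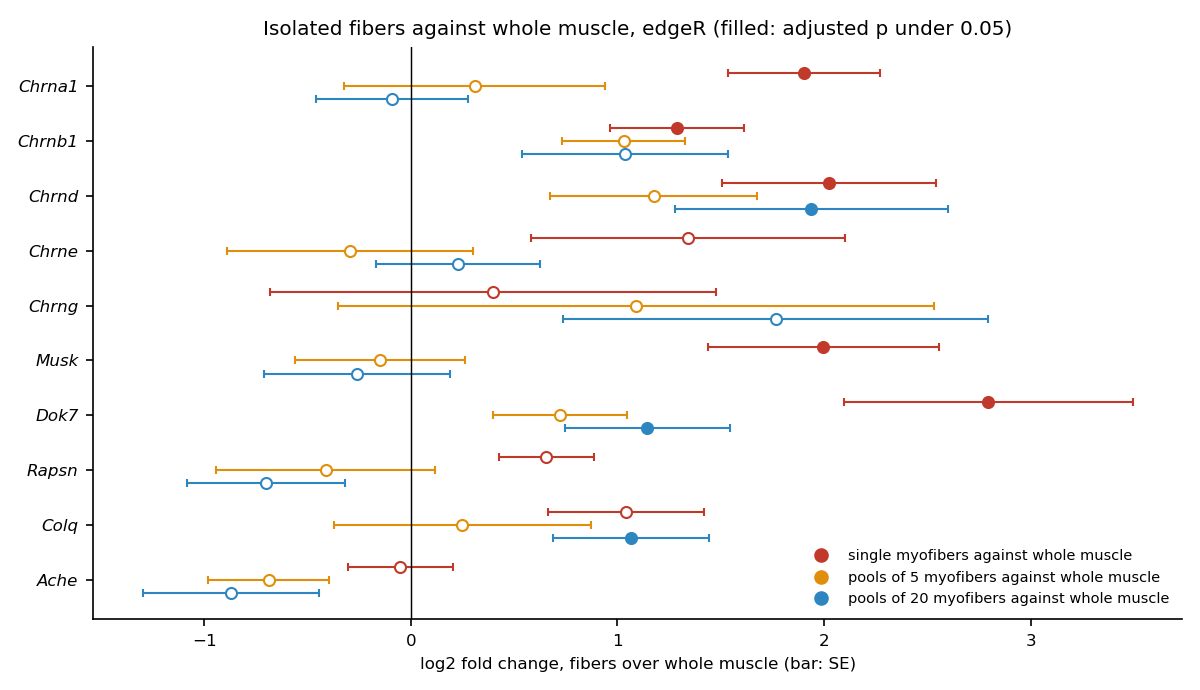
Log2 fold changes (horizontal axis) of the 10 genes in single fibers, pools of 5 and pools of 20, each against whole muscle, on TMM scaling; points are edgeR estimates, bars their SE, and filled points have an adjusted p under 0.05. Filled points are 5 for single fibers and 3 for pools of 20, all to the right of 0, with Dok7 in single fibers farthest at 2.80.

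In pools of 5, 0 of the 10 genes passed the test with edgeR against a background of 8.85% of 14764 genes (4.63% higher, 4.22% lower), 3 had an unadjusted p under 0.05, as did 26.8% of all genes, and DESeq2 called 2, Chrnb1 and Chrnd, and 20.9% of all genes. The 3 were Chrnb1 and Chrnd, both above whole muscle in every library, and Ache, below it in every library. In CPM, 2 genes lay above and 1 below, where 36.2% of all genes did not overlap with whole muscle, 16% above and 20.2% below. Scaled by library totals, 0 of the 10 genes lay above and 5 below (Chrne, Musk, Dok7, Rapsn and Ache). No share over all genes was computed on that scale, so the 5 genes below cannot be set against a background. With library totals 1 gene was called, Ache, lower, where 38.5% of all genes were, 1.96% higher and 36.5% lower, the median of all genes having shifted by -1.17. The pools of 5 disagreed among themselves: without pool of 5 number 3, which had 4.59% of the sensory receptor genes with a read against 58.0% and 68.9% in the other pools of 5, 6 of the 10 genes were called, 2 higher and 4 lower, where 48.4% of all genes were, 25.2% higher and 23.1% lower. With pool of 5 number 3 as the only pool, assumed to vary like whole muscle, 7 were called, all higher, where 46.4% of all genes were, 19.4% higher and 27% lower.

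In pools of 20, Chrnd, Dok7 and Colq rose against whole muscle and 0 of the 10 genes fell, against a background of 43.9% of 16969 genes, 30.3% higher and 13.5% lower. The median was 0.63 over the 10 genes and 0.38 over all genes tested. In CPM, 0 of the genes lay above and 3 below whole muscle in all libraries (Musk, Rapsn and Ache), where 59% of all genes did not overlap, 28.4% above and 30.6% below. Scaled by library totals, 4 lay above (Chrnb1, Chrnd, Dok7 and Colq) and 2 below (Rapsn and Ache), and Musk overlapped. Here too the share of all genes on that scale was not computed. Each of the 3 calls was lost without pool of 20 number 1 or 3 and without whole muscle 1 or 3, where 57.3%, 41%, 50.6% and 39.4% of all genes were called. Without pool of 20 number 2, the library with the largest TMM factor, 6 genes were called, 4 higher and 2 lower, where 57.8% of all genes were. With library totals 4 were called, Chrnb1 and Dok7 higher, Ache and Rapsn lower, where 41.6% of all genes were, 23.3% higher and 18.4% lower, with a shift of -0.13. The mean of the 3 fiber groups against whole muscle gave 0 calls with edgeR where 15.2% of 22110 genes were called, 7.46% higher and 7.78% lower; library totals called 1, Ache, lower, where 24% of all genes were called, 3.01% higher and 21% lower. In the mean of the fiber groups 3 of the 10 genes had an unadjusted p under 0.05, as did 33.4% of all genes, Chrnd (log2 fold change 1.65, SE 0.60, adjusted p = 0.0653), Dok7 (1.49, SE 0.57, adjusted p = 0.0727) and Chrnb1 (1.06, SE 0.47, adjusted p = 0.125), and DESeq2 called the same 3 genes and 29.1% of all genes.

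Among fiber groups, single fibers against pools of 20 gave 3 calls, Chrna1, Musk and Rapsn, all higher in single fibers, and 36.1% of all 16978 genes tested were called, 8.52% higher and 27.5% lower. Dok7 was at 1.64 (SE 0.66, adjusted p = 0.0629) and Chrne at 1.14 (SE 0.71, unadjusted p = 0.129). Library totals left 0 calls, with the median of all genes shifted by -0.88 and 38.5% of all genes called, 2.58% higher and 36% lower. Single fibers against pools of 5 gave 0 calls among 9 tested genes, both with edgeR (0.0157% of 12700 genes called) and with DESeq2 (3.34% of 12649). All 9 had a positive log2 fold change. An unadjusted edgeR p under 0.05 was reached by 3 of them (Chrna1, Musk and Dok7) and by 8.91% of all genes. Pools of 5 against pools of 20 gave 0 calls among the 10 genes, both with edgeR (0% of 17113 genes called) and with DESeq2 (1.05% of 17018). An unadjusted edgeR p under 0.05 was reached there by 0 of the 10 genes and by 8.78% of all genes. The comparisons with a common group share its libraries and are not independent of each other.

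The make-up of the 10-gene total, each gene's reads per kilobase as a share of the sum over the 10 genes in its library, does not depend on scaling either. Rapsn made up 20.1%, 18.1% and 16.5% of it in single fibers, 10.3%, 12.7% and 25.4% in pools of 5, 14.5%, 15.4% and 13.0% in pools of 20, and 28.01%, 26.7% and 27.96% in whole muscle. Ache made up 7.003%, 5.28% and 5.55% in single fibers, 7.82%, 9.15% and 7.02% in pools of 5, 7.56%, 6.99% and 5.43% in pools of 20, and 16.1%, 12.2% and 15.6% in whole muscle. For both genes all 9 fiber libraries lay below all 3 whole muscle libraries, although pool of 5 number 3 came close for Rapsn. Chrnb1 and Chrnd moved the other way in both kinds of pool: Chrnb1 took 26.9% to 57.2% in pools of 5 and 36.5% to 43.5% in pools of 20, against 22.7% to 26.4% in whole muscle. Dok7 took 20.5%, 2.44% and 20.4% in single fibers, 5.15% to 9.43% in pools of 5, 8.33% to 9.36% in pools of 20 and 4.31% to 5.54% in whole muscle, so that single fiber 2 lay below whole muscle and the other 2 single fibers above. Chrne ran the opposite way in the same fibers, with 5.37%, 33.5% and 4.22%, against 12.3% to 15.3% in whole muscle. These shares were singled out after their values were seen and carry no test.

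**Figure D3:**
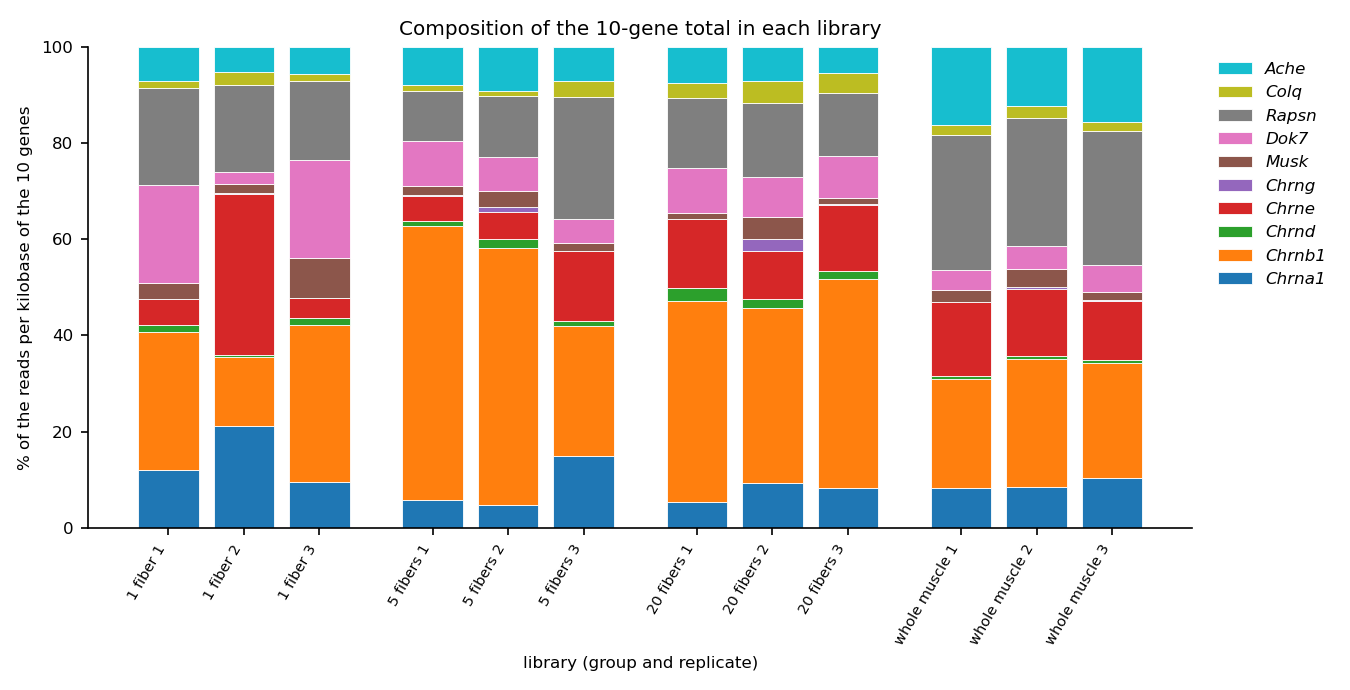
Stacked bars giving, for each of the 12 libraries, the percent of the 10-gene reads per kilobase that each gene made up (vertical axis, 0 to 100%); libraries are grouped as 1, 5 and 20 fibers and whole muscle. The Rapsn and Ache segments are narrower in all 9 fiber libraries than in whole muscle, Dok7 is wide in single fibers 1 and 3, and Chrne is widest in single fiber 2 at 33.5%.

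Read density over the background was ample for most genes except in the pools with many background reads. In single fibers and whole muscle every gene but Chrng lay above the 99th percentile of the sensory receptor genes. In pool of 20 number 2, Chrnd, Chrng, Musk and Colq lay within it, so the level of those 4 genes cannot be told from background there.

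**Figure D4:**
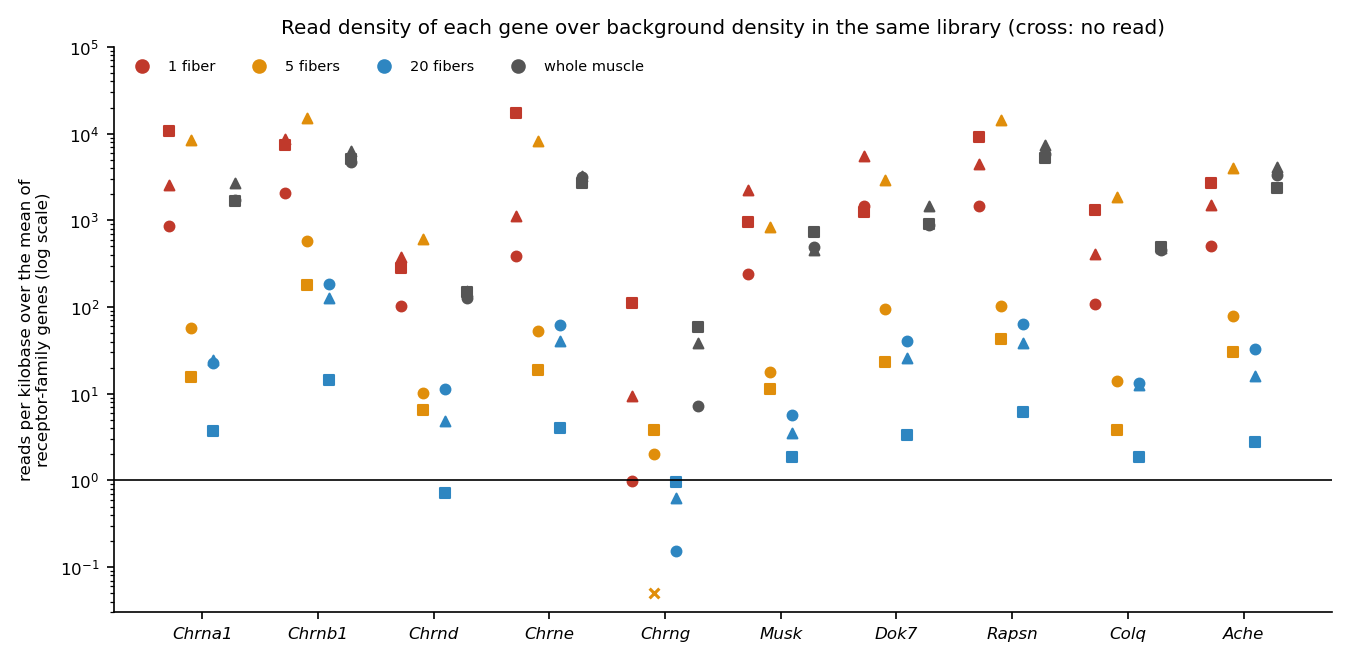
Reads per kilobase of each gene divided by the mean of the sensory receptor genes in the same library (vertical axis, log scale; the line marks 1); colour gives the group, marker shape the replicate number, and the cross the 1 library with 0 Chrng reads. Single fibers, whole muscle and pool of 5 number 3 stand far above the line for all genes but Chrng, and the pools of 20 are closest to it.

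Of 16 genes that signal to or are transcribed with the synapse, 2 rose and 2 fell in single fibers against whole muscle among 14 tested, where 13.9% of all genes were called higher and 19.8% lower, so the count stood near the background. Etv5, an Ets-family factor induced by neuregulin in muscle, was at 17.1, 30.2 and 14.3 CPM in single fibers and 8.82, 8.21 and 7.29 CPM in whole muscle (log2 fold change 1.27, SE 0.33, adjusted p = 0.0220). Agrn, which encodes agrin, was at 1.92, 0.454 and 1.16 CPM in single fibers and 5.50, 7.35 and 6.35 CPM in whole muscle (-2.48, SE 0.59, adjusted p = 0.0158). The other 2 were Ufsp1, which rose (1.22), and the adaptor Crk, which fell (-0.85) to 35.1 to 40.2 CPM in single fibers, against 58.5 to 74.3 CPM in whole muscle; Crk is known to bind phosphorylated Dok-7. Etv5, Agrn and Ufsp1 were named after their values were seen.

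In the mean of the fiber groups against whole muscle 2 of these 16 genes rose, Nrg1 and Erbb4, and 2 fell, Crk and Gabpa, where 7.46% of all genes were called higher and 7.78% lower. Gabpa encodes the DNA-binding subunit of GABP, which binds the N-box, and was at 7.17 to 14.3 CPM in single fibers, 5.32 to 13.0 CPM in pools of 5, 4.79 to 7.03 CPM in pools of 20 and 16.8 to 25.0 CPM in whole muscle (log2 fold change -1.34, SE 0.36, adjusted p = 0.0193). Nrg1, the ligand neuregulin 1, and its receptor Erbb4 were low: Nrg1 reached 6.64 CPM in pool of 20 number 2 and 0.0774 CPM in whole muscle, Erbb4 6.06 and 0.232 CPM. Mean levels in single fibers, pools of 5 and pools of 20 were 0.295, 0.732 and 4.33 CPM for Nrg1 and 0.741, 1.05 and 5.42 CPM for Erbb4. Both were thus highest in the pools with most background reads, and the part of background in these 2 calls was not tested. Of the 16 genes, 5 to 11 lay within the background density in a pool of 20 and 2 in each whole muscle library. The 3 with the highest means were Prkar1a, Crk and Ptpn11, of which Prkar1a (0.10, adjusted p = 1.00) and Ptpn11 (-0.16, adjusted p = 0.875) did not pass.

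Of 15 genes of the postsynaptic scaffold, synaptic matrix and sodium channel, 1 rose and 3 fell in single fibers, and 1 rose and 2 fell in the mean of the fiber groups. Of all genes tested, 33.6% were called in single fibers and 15.2% in the mean, so both counts stood near the background. Dtna, which encodes the dystrophin-associated protein alpha-dystrobrevin, was at 159, 289 and 126 CPM in single fibers and 86.9, 94.9 and 90.8 CPM in whole muscle (log2 fold change 1.00, SE 0.30, adjusted p = 0.0380). Dag1, which encodes dystroglycan, was at 0.18 on that scale in single fibers and did not pass. Lama4, a laminin chain of the synaptic and capillary basement membrane, was at 0.750, 0 and 0 CPM in single fibers, 30.5, 30.2 and 2.11 CPM in pools of 5, 6.92, 10.6 and 15.1 CPM in pools of 20 and 21.6, 25.6 and 27.7 CPM in whole muscle, and fell in the mean of the fiber groups by 2.69 on the log2 scale (SE 0.62, adjusted p = 0.00874). Lama5 rose there by 1.87 (SE 0.50, adjusted p = 0.0199) and the collagen galactosyltransferase Colgalt1 fell by 1.33 (SE 0.33, adjusted p = 0.0123).

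Of 14 genes known to respond to denervation, 7 rose and 2 fell in single fibers (median 1.23, against -0.12 over all genes), 4 rose and 1 fell in pools of 5, and 6 rose and 2 fell of 13 tested in pools of 20. Of all genes, 13.9% were called higher and 19.8% lower in single fibers, 4.63% and 4.22% in pools of 5, and 30.3% and 13.5% in pools of 20. The median of the list was 1.12 in pools of 5 and 0.70 in pools of 20, against -0.03 and 0.38 over all genes. Of the 14 genes, 6 to 10 lay within the background density in a pool of 20 and 1 to 6 in a pool of 5. In a single fiber 2 to 4 did so, and in a whole muscle library 0 to 1. Myod1, a myogenic transcription factor, was at 626, 21.4 and 1017 CPM in single fibers, 158, 119 and 104 CPM in pools of 5, 11.2, 4.11 and 9.95 CPM in pools of 20, and 6.73, 12.7 and 14.2 CPM in whole muscle. Runx1, a transcription factor strongly induced by denervation, was at 215, 8.18 and 304 CPM in single fibers, 79.5, 32.1 and 18.3 CPM in pools of 5, 6.92, 7.43 and 7.65 CPM in pools of 20, and 3.17, 1.75 and 2.67 CPM in whole muscle. Both were high in single fibers 1 and 3 and far lower in single fiber 2, which was also the lowest single fiber for Chrnb1, Chrnd, Musk and Dok7. Single fiber 2 was the highest single fiber for Chrna1, Chrne, Chrng and Colq, and lay between the others for Rapsn and Ache.

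Not all denervation genes moved up. Myog, which encodes myogenin, was at 1.08, 0.0649 and 1.07 CPM in single fibers, 1.28, 3.04 and 3.22 CPM in pools of 5, 1.02, 0.649 and 0.235 CPM in pools of 20 and 10.2, 11.1 and 8.13 CPM in whole muscle, and fell in the mean of the fiber groups by 3.22 on the log2 scale (SE 0.57, adjusted p = 0.00112). Sln, sarcolipin, fell by 3.32 (SE 0.78, adjusted p = 0.00949). Runx1 (3.93, adjusted p = 0.00497), Myod1 (2.91, adjusted p = 0.0264) and the histone deacetylase Hdac4 (1.56, adjusted p = 0.0322) rose. Myh8, the perinatal myosin, did not pass (-0.20, adjusted p = 0.934). In single fibers the fetal receptor subunit Chrng, which denervation induces, was at 0.0834, 1.43 and 0.178 CPM.

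Markers of Schwann cells, which cover the nerve ending, were far lower in the fiber libraries than in whole muscle. The summed level of 10 Schwann cell markers was 4.28 to 18.4 CPM in single fibers, 14.2 to 32.6 CPM in pools of 5, 22.6 to 33.6 CPM in pools of 20 and 245 to 326 CPM in whole muscle. Of these markers 8 of 9 tested fell in single fibers and 0 rose, where 19.8% of all genes were called lower and 13.9% higher. Motor axon markers, 8 genes including Chat, summed to 0 to 3.67 CPM in single fibers, 0.263 to 7.04 CPM in pools of 5, 3.97 to 14.9 CPM in pools of 20 and 0.0675 to 0.697 CPM in whole muscle, and all 8 lay within the background density in every pool. In whole muscle, endothelial markers summed to 774 to 919 CPM and erythroid markers to 608 to 904 CPM, against at most 2.94 and 1.25 CPM in single fibers. The pools held far more of both than single fibers. Endothelial markers summed to 68.1 to 451 CPM in pools of 5 and 36.8 to 394 CPM in pools of 20. Erythroid markers summed to 108 to 453 CPM in pools of 5 and 17.1 to 350 CPM in pools of 20. The 5 fibroblast markers summed to 157, 7.07 and 13.5 CPM in single fibers and 2627 to 2873 CPM in whole muscle. In pools of 5 they summed to 39.6 to 393 CPM and in pools of 20 to 42.6 to 359 CPM. In whole muscle the 5 macrophage markers summed to 365 to 389.6 CPM. Pools of 5 had 30.9 to 40.4 CPM of them and pools of 20 had 7.15 to 24.9 CPM. In single fibers they summed to 246, 1.75 and 269.5 CPM. Nearly all of that in single fibers was Cd68, a lysosomal membrane protein, at 244, 1.49 and 266 CPM in single fibers and 5.73, 6.39 and 7.22 CPM in whole muscle, so it was high in the same single fibers 1 and 3 as Dok7, Myod1 and Runx1. Among the other macrophage markers, Lyz2 was at 1.501, 0.1298 and 0 CPM in single fibers and 225 to 235 CPM in whole muscle, and Adgre1 at 0.0834, 0 and 0 CPM in single fibers and 5.94 to 7.49 CPM in whole muscle. Csf1r reached 3.83 CPM and Cd74 0.167 CPM in a single fiber, against at least 15.2 and 110 CPM in whole muscle. The 5 satellite cell markers summed to 12.6 to 19.4 CPM in single fibers and 36.6 to 43.5 CPM in whole muscle. The part of these other cells in the values of the synaptic genes was not tested. The fiber itself was present everywhere: 8 myofiber markers summed to 136426 to 248237 CPM in single fibers, 46614 to 248742 CPM in pools of 5, 12707 to 82557 CPM in pools of 20 and 59564 to 80256 CPM in whole muscle.

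For 4 of the genes, the 2 genes of most similar pattern were sought by the smallest root-mean-square difference of gene-centred log2(CPM + 0.5) over the 12 libraries, among 6030 protein-coding genes that averaged at least 10 CPM. Chrna1 lay nearest to 1110032A03Rik (0.332) and Uchl5 (0.346), where its own SD was 1.20 on that scale. Chrne lay nearest to Asb14 (0.442) and Cinp (0.482), Musk to Lrp6 (0.376) and Aebp2 (0.440), and Ache to Coq2 (0.186) and Rnps1 (0.227). Lrp6 was at 104, 31.1 and 154 CPM in single fibers and 20.4 to 23.9 CPM in whole muscle, and Asb14 at 62.1, 202 and 61.6 CPM in single fibers and 76.0 to 94.7 CPM in whole muscle. The single fiber with the lowest Lrp6 was the one with the highest Asb14, as for Musk and Chrne themselves. Because Lrp6 and Asb14 were picked for their likeness to these 2 genes in the same libraries, this match follows from the choice.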

How the data were processed

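The authors deposited 1 table of raw read counts per Ensembl gene for the 12 libraries, made with HISAT2, SAMtools and featureCounts on GRCm38 (mm10), per the submitters' processing notes; versions, settings and annotation release are not given in the sources used here. Groups and replicate numbers came from the sample titles. Of 55573 identifiers, 55394 matched GENCODE vM21, which gave symbols, exon lengths and coordinates; upstream sequences are RefSeq's (GRCm38.p6).

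Counts were tested with edgeR 4.0.16 in R 4.3.3 (TMM factors, filterByExpr, glmQLFit and glmQLFTest) on the 6 libraries of each pair of groups, and on all 12 libraries for the mean of the fiber groups against whole muscle. Benjamini-Hochberg adjusted p under 0.05 over all genes tested was called; SE is the log2 fold change over the square root of F. CPM used factors from all 12 libraries. Alternatives were RLE and upper-quartile factors, library totals, no low-count filter, DESeq2 1.42.0, the replicate number as a block, a common fit, and left-out libraries. Depth limits Chrng and Chrnd most. The fits were tested on simulated counts that had neither the spread nor the background differences of these libraries, so that test checks the code only.

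The 10 genes, the 3 further gene lists, the marker lists and the rule for named genes (all 10 genes; of each list the 3 highest by mean CPM and up to 6 called in the mean of the fiber groups; 2 pattern neighbours for 4 genes) were chosen with earlier results of these data known. Some genes that this rule names are not reported here.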

Additional observations from a re-analysis of the deposited data

How the results depend on the processing

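The count of the 10 genes called was recomputed under each alternative, and the percent of all genes called is given in brackets. For the mean of the fiber groups against whole muscle (0; 15.2%) it was 2 with RLE factors (12.5%), 3 with upper-quartile factors (14.7%), 1 with library totals (24%), 3 with DESeq2 (29.1%), 1 without the 5 libraries rich in background reads (20.9%), 2 without single fiber 2 and pool of 5 number 3 (34.4%), and 0 to 3 leaving out 1 library at a time (4.55% to 27.7%). For single fibers against whole muscle (5; 33.6%) it was 1 with library totals (49.3%), 2 with the replicate block (22.3%), 2 in 1 fit over 12 libraries (12.9%) and 0 to 6 leaving out 1 library (10.4% to 50%). For pools of 5 (0; 8.85%) it was 1 with RLE (9.65%), 1 with upper-quartile factors (9.31%), 1 with library totals (38.5%), 2 with DESeq2 (20.9%), 7 without the libraries with background reads (46.4%), 6 without pool of 5 number 3 (48.4%), and 0 to 6 leaving out 1 library (0.0429% to 48.4%). For pools of 20 (3; 43.9%) it was 1 without the low-count filter (46.5%), 0 in 1 fit over 12 libraries (33.5%) and 0 to 6 leaving out 1 library (38.8% to 57.8%); without its background libraries no pool of 20 was left. For single fibers against pools of 5 (0; 0.0157%) it was 1 without the filter (1.84%), 1 in the common fit (3.41%) and 0 to 2 leaving out 1 library (0% to 5.52%), and against pools of 20 (3; 36.1%) it was 0 with library totals (38.5%), 0 with the replicate block (0.0412%) and 3 to 5 leaving out 1 library (21.9% to 46.5%), which were not always the same genes. The cause of these changes was not tested.

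In single fibers against whole muscle, library totals turned Chrng (-0.75), Rapsn (-0.42) and Colq (-0.06665); leaving out single fiber 2 turned Chrne (-0.31) and Chrng (-1.63), as did leaving it out together with pool of 5 number 3; leaving out whole muscle 1 turned Chrng (-0.05); and Ache crossed 0 in the common fit (0.0052). Leaving out 1 library gave -0.31 to 1.725 for Chrne, -1.63 to 1.111 for Chrng and -0.2389 to 0.01289 for Ache, positive without single fiber 3 or whole muscle 3. In pools of 5, Chrnb1 turned with library totals (-0.17). The gamma share difference of 3.59 points was 0.723 with background subtracted, 6.80 in raw reads and 1.81 to 4.19 leaving out 1 library, never past the threshold. Most same-numbered libraries did not deviate together (18 pairs, correlations of -0.265 to 0.605, of which 3 exceeded 0.1). The highest was between pool of 5 number 2 and pool of 20 number 2. Pool of 5 number 3 and pool of 20 number 1, which differ in number, reached 0.532. The main fits do not take the numbers as pairs, and the calls with the replicate block are given above. Library totals and the length alternative were chosen after the data had been seen.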
